A study of Homo sapiens with 3 samples.

Results

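The genes described here are 9 alpha- and beta-tubulin genes and TTC5, 10 of the 20332 genes in the deposited expression table. They were chosen by name: TUBA1A, TUBA1B, TUBA1C and TUBA4A encode alpha-tubulins, TUBB, TUBB2A, TUBB3, TUBB4B and TUBB6 encode beta-tubulins, and TTC5 encodes a factor that acts on tubulin transcripts. All 10 symbols were found, each in 1 row of the table. RNA-seq was made from MV-4-11, an established human line of acute myeloid leukaemia whose FLT3 receptor gene carries an activating internal duplication; all groups share the label wild type. The 3 groups are cells cultured untreated for 1 day, cells given FL-Fc-DM1 at 0.5 nM for 1 day and cells given it at 1.5 nM for 1 day. Each group is 1 library, so no difference below has a replicate behind it, and every ratio compares libraries rather than conditions. Doses were assigned to the treated columns by the number that ends each column name; with the treated columns swapped, what is said of 0.5 nM would hold for 1.5 nM and the reverse.

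FL-Fc-DM1 carries DM1 into cells by way of FLT3 ligand, to which an Fc domain is fused. DM1 is a maytansine derivative that binds beta-tubulin and blocks its assembly into microtubules. Microtubules are built from dimers of an alpha- and a beta-tubulin, which vertebrates encode as families of closely related genes called isotypes. Cells hold the level of these transcripts to the amount of free dimer: when microtubules are taken apart and free dimer is plentiful, TTC5 binds the first residues of a tubulin as it leaves the ribosome and, through SCAPER, brings the CCR4-NOT deadenylase to the transcript, which is then degraded. Drugs that depolymerise microtubules are known for lowering tubulin mRNA by this route; RNA-seq itself does not measure free tubulin.

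The coding starts of the 9 tubulins are shown because this is the stretch that TTC5 reads as protein. They are the first 30 coding bases of each gene's principal transcript in GENCODE release 29, 5′ to 3′, with codons 2 to 4 in capitals.
TUBA1A: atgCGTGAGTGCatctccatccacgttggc
TUBA1B: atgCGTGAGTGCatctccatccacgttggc
TUBA1C: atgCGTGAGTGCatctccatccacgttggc
TUBA4A: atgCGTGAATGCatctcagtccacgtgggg
TUBB: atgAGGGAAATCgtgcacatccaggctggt
TUBB2A: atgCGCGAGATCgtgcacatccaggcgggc
TUBB3: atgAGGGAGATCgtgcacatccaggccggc
TUBB4B: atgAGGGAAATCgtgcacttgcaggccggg
TUBB6: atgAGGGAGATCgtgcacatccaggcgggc

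The 3 TUBA1 genes have the same 30 bases. In every alpha-tubulin shown the capitals encode arginine, glutamate and cysteine, and in every beta-tubulin arginine, glutamate and isoleucine, so the 9 genes share this feature whatever their levels did. Among 19566 protein-coding genes with an annotated coding start, 19 (0.0971%) began in either way, 9 with the cysteine form and 10 with the isoleucine form. All 19 were alpha- or beta-tubulin genes. The other 10 of the 19 were TUBA3C, TUBA3D, TUBA3E, TUBA8, TUBAL3, TUBB1, TUBB2B, TUBB4A, TUBB8 and TUBB8P12.

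The libraries held 16427206 to 22329953 estimated counts. Ratios below are log2 ratios of counts scaled to library size (CPM) after TMM scaling, a scaling that lines up the bulk of genes, and brackets give exact 95% intervals for counting error alone. Over the 11322 genes that averaged at least 1 CPM, 9 of the 10 genes among them, the median log2 ratio was 0.00 at 0.5 nM and 0.00 at 1.5 nM. TUBB2A lay under that minimum. FLT3, the receptor of the conjugate's ligand part, stood at 506 CPM untreated, 489 CPM at 0.5 nM and 448 CPM at 1.5 nM. All 10 markers of myeloid leukaemia cells passed the minimum, while CD3D, CD3E, CD3G and MS4A1 of T and B cells and HBA1, HBB and PF4 of erythroid and megakaryocyte cells were at 0 counts in each library. Counts of TUBB and TTC5 were whole numbers in each library, and those of the other 8 genes were not. These 8 may share reads with other genes and are uncertain beyond their intervals. Whole counts are no measure of shared sequence, since TUBB shares more of its transcript with other genes than TUBB6 does, as given below.

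Levels of different genes can be compared in TPM, which is scaled to gene length. TUBA1B was the most abundant of the 10, at 2503 TPM untreated, 2133 TPM at 0.5 nM and 1773 TPM at 1.5 nM. TUBB, the class I beta-tubulin, came next with 1831, 1484 and 1273 TPM in the same order of libraries. After these came TUBA1C, TUBB4B, TUBB6 and TUBA4A, in that order in each library and with no overlap of the counting intervals of neighbours. The order below them differed between the libraries. TTC5 stood above TUBA1A untreated and at 0.5 nM, and just under it at 1.5 nM, where their intervals overlapped. TUBB3 and TUBB2A were lowest, and their intervals overlapped in the untreated and the 0.5 nM library but not at 1.5 nM.

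**Figure D1:**
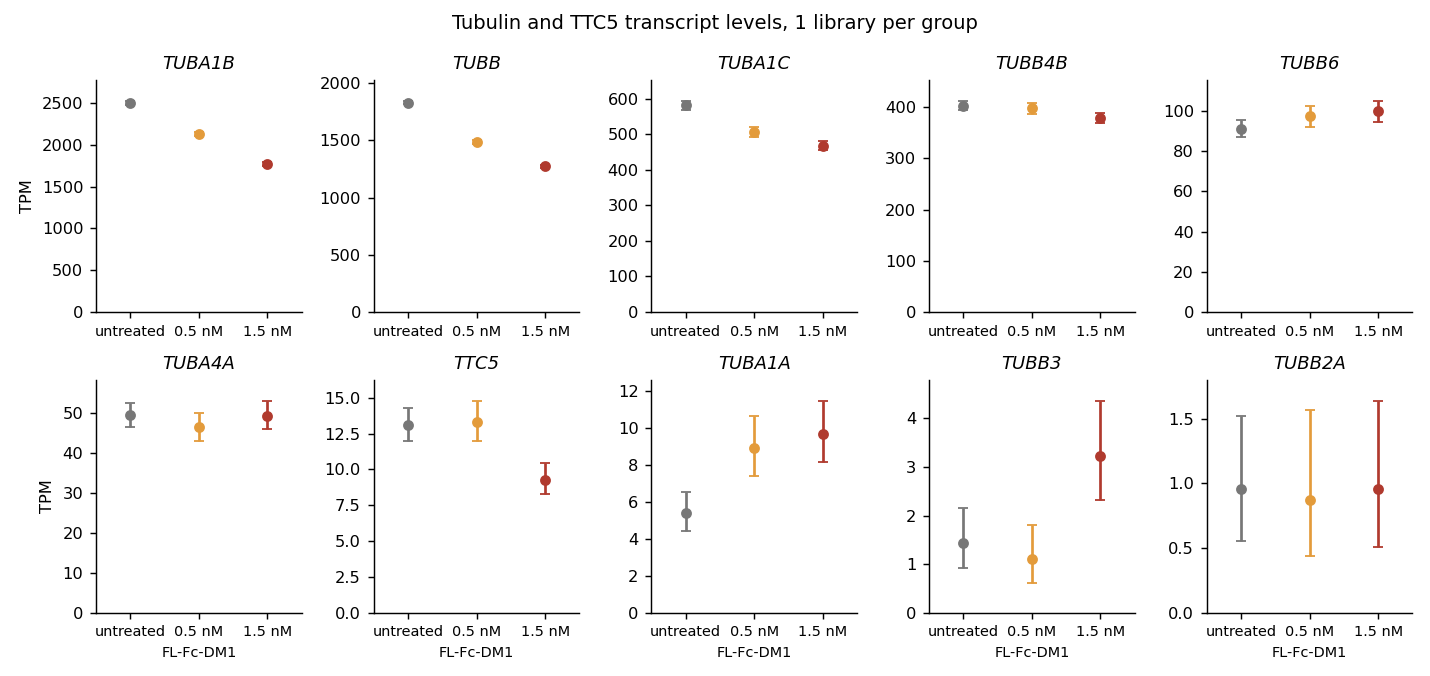
TPM of each of the 10 genes (y axis, from 0, with its own scale in each panel) in the untreated, 0.5 nM and 1.5 nM libraries (x axis), 1 library per group, with exact 95% intervals for counting error as bars. TUBA1B, TUBB and TUBA1C step down with dose, TUBA1A is higher in both treated libraries, and TTC5 is lower at 1.5 nM alone.

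The most abundant tubulin transcripts were lower in both treated libraries, and more so at 1.5 nM. TUBB (ENSG00000196230) had 52144 counts untreated, 30133 at 0.5 nM and 27260 at 1.5 nM, which is 2366, 1824 and 1604 CPM. The 3 libraries are in order of dose, untreated highest. Its log2 ratio to untreated was -0.38 [-0.40, -0.35] at 0.5 nM and -0.56 [-0.58, -0.54] at 1.5 nM, changes of -22.9% and -32.2%, and its ratio between 1.5 nM and 0.5 nM was -0.19 [-0.21, -0.16]. Of all genes analysed, 3.22% had a lower ratio than TUBB at 0.5 nM and 2.54% at 1.5 nM. Low-count genes scatter more widely, and among genes of 100 or more mean CPM the shares below TUBB were 0.327% and 0.490%. In bulk RNA such as this, fewer cells of a type and less RNA per cell cannot be told apart.

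TUBA1B (ENSG00000123416), the main alpha-tubulin of dividing cells, followed the same order. It had 2092 CPM untreated, 1695 CPM at 0.5 nM and 1444 CPM at 1.5 nM. Its log2 ratios to untreated were -0.30 [-0.33, -0.28] and -0.54 [-0.56, -0.51], and 1.5 nM against 0.5 nM gave -0.23 [-0.26, -0.21]. TUBA1C (ENSG00000167553), an alpha-tubulin that neighbours TUBA1A and TUBA1B on the same chromosome, stood at 371 CPM untreated, 313 CPM at 0.5 nM and 287 CPM at 1.5 nM. It was thus also lowest at the higher dose, with log2 ratios of -0.25 [-0.30, -0.20] and -0.37 [-0.42, -0.32].

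TUBB4B, TUBA4A and TUBB6 stood close to the untreated level. TUBB4B (ENSG00000188229), a class IVb beta-tubulin of many tissues, had 323 CPM untreated, 304 CPM at 0.5 nM and 296 CPM at 1.5 nM. Its log2 ratios, -0.09 [-0.14, -0.04] and -0.13 [-0.18, -0.07], lay within the middle 50% of all genes at 1.5 nM, which ran from -0.14 to 0.16. TUBA4A (ENSG00000127824), whose gene does not encode the C-terminal tyrosine found in most alpha-tubulins, had 48.5, 44.1 and 46.4 CPM in order of dose, with ratios of -0.14 [-0.27, 0.00] and -0.06 [-0.20, 0.07]. TUBB6 (ENSG00000176014), a class V beta-tubulin, had 81.3, 82.9 and 86.3 CPM, with ratios of 0.03 [-0.08, 0.13] and 0.09 [-0.01, 0.19]. The intervals of both genes held 0 at both doses, that of TUBA4A at 0.5 nM only just.

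Among the scarce isotypes, TUBA1A was higher in both treated libraries and TUBB3 at 1.5 nM alone. TUBA1A (ENSG00000167552), an alpha-tubulin best known from developing neurons, had 105.20 estimated counts untreated, 120.26 at 0.5 nM and 140.91 at 1.5 nM, or 4.76, 7.26 and 8.30 CPM. The untreated library was the lowest although it was the deepest, and the log2 ratios were 0.60 [0.22, 1.00] and 0.79 [0.43, 1.18]. TUBB3 (ENSG00000258947), the class III beta-tubulin used as a marker of neurons, had 24.02, 15.03 and 41.73 estimated counts, or 1.09, 0.908 and 2.47 CPM. Its ratios were -0.24 [-1.30, 0.73] at 0.5 nM, which is within counting error, 1.11 [0.43, 1.97] at 1.5 nM and 1.34 [0.56, 2.40] between the doses. TUBB2A (ENSG00000137267), a class IIa beta-tubulin, had 17.43, 11.40 and 13.14 estimated counts and ratios of -0.18 [-1.45, 0.97] and -0.01 [-1.17, 1.12], so no difference was detectable at this depth. None of the 7 neuronal marker genes passed the expression minimum, STMN2 and SNAP25 were at 0 counts in each library, and the summed level of the 7 was 0.726 CPM untreated, 0.787 CPM at 0.5 nM and 0.471 CPM at 1.5 nM.

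**Figure D2:**
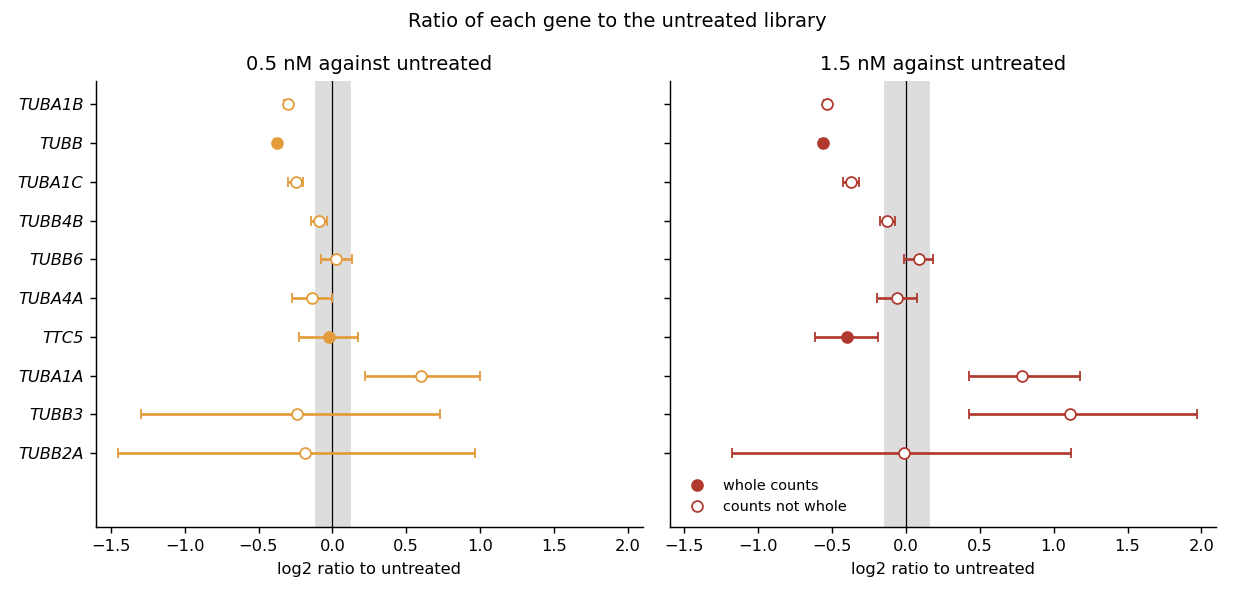
Log2 ratio to untreated (x axis) of each of the 10 genes (y axis, by untreated TPM) at 0.5 nM (left) and 1.5 nM (right), with exact 95% intervals for counting error. Filled points have whole counts in each library, open points do not, and the grey band holds the middle 50% of all genes analysed, -0.14 to 0.16 at 1.5 nM. TUBB and TUBA1B lie left of the band at both doses and TUBA1A right of it.

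TTC5 itself was lower at 1.5 nM and near the untreated level at 0.5 nM. TTC5 (ENSG00000136319) had 497 counts untreated, 366 at 0.5 nM and 290 at 1.5 nM, or 22.6, 22.2 and 17.1 CPM. The untreated and 0.5 nM libraries were alike, and the 1.5 nM library stood below both. The log2 ratio to untreated was -0.03 [-0.22, 0.17] at 0.5 nM and -0.40 [-0.62, -0.19] at 1.5 nM, and 1.5 nM against 0.5 nM gave -0.37 [-0.60, -0.15]. At 1.5 nM, 5.54% of all genes had a lower ratio than TTC5. At 0.5 nM the intervals of TUBB and TUBA1B lay below 0, while that of TTC5 held 0 and lay above both. A small decrease of TTC5 is within its interval, and 1 library per dose gives no order of changes.

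Counted together, 8 of the 10 genes had a ratio below 0 at 0.5 nM (49.5% of all genes analysed did) and 7 of 10 at 1.5 nM (50.2% of all genes analysed). Among those below 0, the intervals of TUBA4A, TUBB3, TUBB2A and TTC5 held 0 at 0.5 nM, and those of TUBA4A and TUBB2A at 1.5 nM. TUBB2A is counted among the 10 but not among the genes analysed. TUBB2A, at -0.01, was among the 7 and lay above 0 under 2 alternatives, upper-quartile scaling and TPM. The median of all genes was then also above 0, at 0.02 and 0.03. Against 0.5 nM, 5 of 10 were below 0 in the 1.5 nM library (49.9% of all genes). These counts give the scarce genes the same weight as TUBB. At 0.5 nM none of the 10 was at least 2-fold higher or lower, against 0.76% of all genes (0.53% higher and 0.23% lower). At 1.5 nM 1 of the 10, TUBB3, was at least 2-fold higher and none lower, against 1.47% of all genes higher, 0.574% lower and 2.04% in all. Between the doses TUBB3 alone was again 2-fold higher, against 0.477% of all genes higher, 0.495% lower and 0.972% in all. With 1.09 CPM untreated and 0.908 CPM at 0.5 nM, TUBB3 averaged 1 CPM only through the 1.5 nM library, where it was high. Its 2-fold calls, set beside genes that passed the same minimum, are thus partly shaped by that filter. The median of the 10 log2 ratios was -0.16 at 0.5 nM and -0.09 at 1.5 nM.

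**Figure D3:**
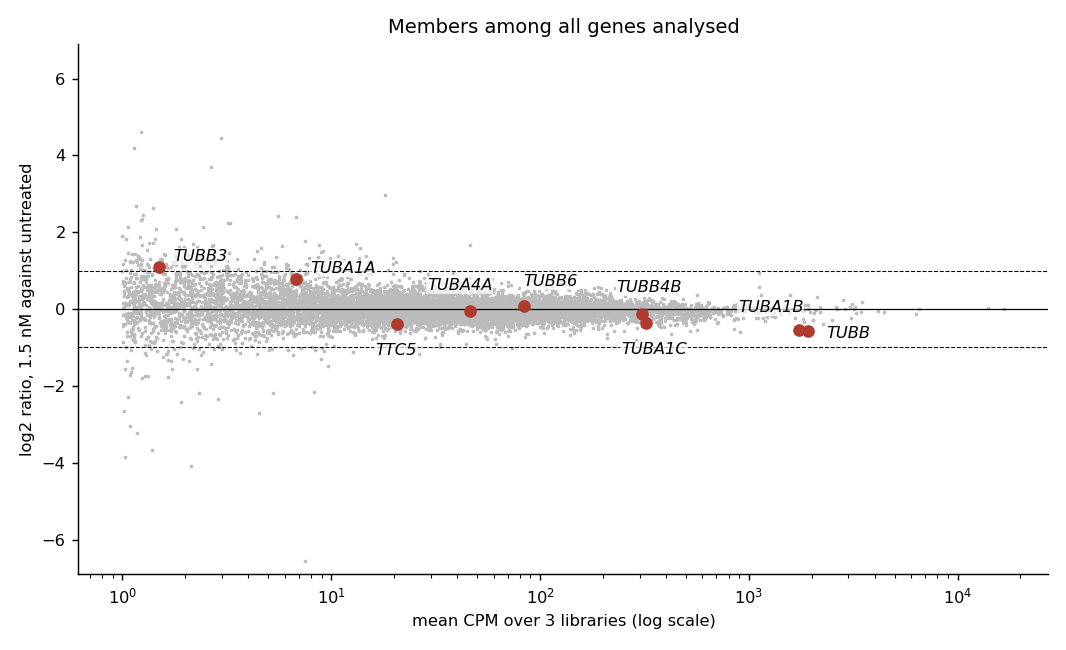
Log2 ratio at 1.5 nM against untreated (y axis) by mean CPM over the 3 libraries (x axis, log scale) for the 11322 genes analysed (grey) and the 9 of the 10 genes among them (red, named). Dashed lines mark 2-fold changes. TUBB and TUBA1B lie under the cloud of genes of like abundance, and TUBB3 above the upper line at low CPM.

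The isotypes were then summed, since reads that are passed between the summed genes stay within the sum. Reads shared with genes outside it, such as the overlapping genes given below, do not. The 4 alpha-tubulin genes summed to 2516 CPM untreated, 2059 CPM at 0.5 nM and 1785 CPM at 1.5 nM. The log2 ratios of that sum were -0.29 [-0.31, -0.27] at 0.5 nM, -0.50 [-0.52, -0.48] at 1.5 nM and -0.21 [-0.23, -0.18] between the doses. The 5 beta-tubulin genes summed to 2773, 2212 and 1990 CPM in order of dose, with ratios of -0.33 [-0.34, -0.31], -0.48 [-0.50, -0.46] and -0.15 [-0.17, -0.13]. Alpha and beta transcripts were thus lower by about the same amount, and their ratio in TPM was 1.35 untreated, 1.36 at 0.5 nM and 1.31 at 1.5 nM. Together they made up 0.547% of all TPM untreated, 0.468% at 0.5 nM and 0.406% at 1.5 nM.

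Each sum was carried by its most abundant gene. TUBA1B accounted for 88.7% of the CPM difference of the alpha sum at 1.5 nM and TUBB for 97.3% of that of the beta sum. Without TUBA1B the alpha ratio was -0.22 at 0.5 nM and -0.31 at 1.5 nM, and without TUBB the beta ratio was -0.0675 and -0.0756. These 2 settings were chosen after seeing the data. The shares of the isotypes also differed between the libraries. TUBB made up 78.7% of beta-tubulin TPM untreated, 74.9% at 0.5 nM and 72.5% at 1.5 nM, TUBB4B 17.3%, 20.1% and 21.6%, and TUBB6 3.92%, 4.92% and 5.68%. The alpha side shifted less, with TUBA1B at 79.7%, 79.2% and 77.1% and TUBA1C at 18.5%, 18.8% and 20.4% of alpha-tubulin TPM.

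**Figure D4:**
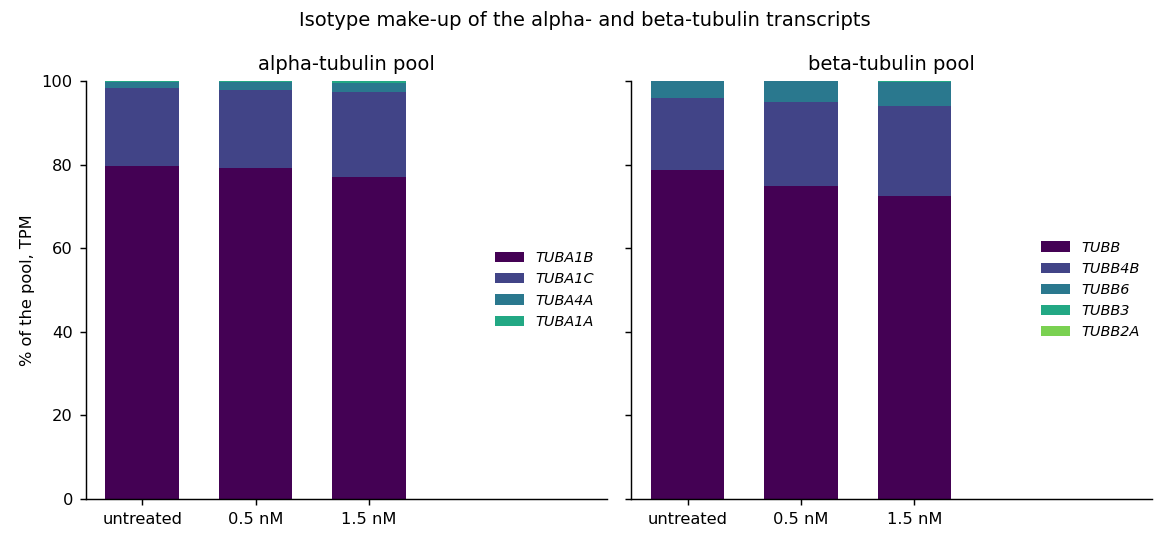
Share of each gene in the summed TPM (y axis, %) of the 4 alpha-tubulin genes (left) and the 5 beta-tubulin genes (right) in the untreated, 0.5 nM and 1.5 nM libraries (x axis). TUBB takes 78.7%, 74.9% and 72.5% of the beta sum, and TUBA1B 79.7%, 79.2% and 77.1% of the alpha sum.

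How far a single isotype can be told from its relatives was read from the GENCODE transcripts. Of the 100-base windows of the TUBB6 transcript none occurred in a transcript of another gene, on either strand, and of those of TTC5 0.214% did. The shares were 4.49% for TUBB4B, 20.4% for TUBB, 26.6% for TUBA1A, 27.4% for TUBA4A, 29.6% for TUBA1C, 56.4% for TUBB2A, 71.1% for TUBA1B and 89.0% for TUBB3. In 50-base windows each share was higher. It was then 0.993% for TUBB6, 1.59% for TTC5, 14.6% for TUBB4B, 30.8% for TUBB and 32.6% for TUBA4A. For TUBA1C it was 40.1%, for TUBA1A 51.8%, for TUBB2A 65.5%, for TUBA1B 87.1% and for TUBB3 89.4%. Most of the shared windows of TUBA1B, 999 of 1086, lay in AC011603.2, a gene annotated antisense to it, and the library protocol names no step that keeps the strand. Likewise 440 of the 524 shared windows of TUBB lay in its antisense gene AL662797.1, and 528 of the 566 of TUBA4A in STK16, a kinase gene that overlaps it on the other strand. The expression table has a row for STK16 but none for AC011603.2 or AL662797.1. TUBA1A shared 282 of its 1816 windows with TUBA1B and 277 with TUBA1C, both far more abundant. The 1487 shared windows of TUBB3 all occur in AC092143.1, an overlapping gene that the table lists at 0 counts in each library.

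Base composition and a library difference moved beside these results. Across 11252 genes with a transcript GC content, the ratio and GC content had a Spearman correlation of -0.28 at 0.5 nM, 0.13 at 1.5 nM and 0.40 between the doses. These are descriptions across genes, which share their libraries. With that trend taken out, TUBB had -0.35 and -0.56, TUBA1B -0.28 and -0.54 and TTC5 -0.06 and -0.37 at 0.5 nM and 1.5 nM, so the values at 1.5 nM were about as large without it. In 50 genes with whole counts, DSP and DSG2 of epithelial cells among them, the 1.5 nM library held at most 2 counts and both others at least 10. The set held none of the 10 genes and summed to 51.2 CPM untreated, 60.4 CPM at 0.5 nM and 1.88 CPM at 1.5 nM. Its part in the tubulin results was not tested. The 7 epithelial markers summed to 6.49, 6.30 and 4.41 CPM in order of dose, with EPCAM at 0 counts in each library. The epithelial markers KRT8 and KRT18 were not in the set. In order of dose KRT8 had 33, 32 and 44 counts, and KRT18 had 56, 24 and 31.

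Among 1991 other genes with whole counts and 100 or more mean CPM, the pair of ratios to untreated was closest to that of TUBB in UHRF1, at a distance of 0.0892 on the log2 scale. TUBA1B, left out because its counts were not whole, lay nearer to TUBB than UHRF1 did. Its ratios were -0.30 and -0.54, beside -0.38 and -0.56 for TUBB and -0.39 and -0.65 for UHRF1. Likeness was measured over 3 libraries only, and both ratios share the untreated library. UHRF1, a DNA methylation factor of replicating cells, had 531, 404 and 339 CPM in order of dose. HNRNPDL, the receptor gene P2RY2, the flap endonuclease gene FEN1 and the RNA-binding protein gene IGF2BP2 followed, at distances of 0.121 to 0.157. Ratios as low as those of TUBB at both doses were found in 3 of the 1991 genes: UHRF1, the argininosuccinate synthase gene ASS1 and the serine synthesis gene PSAT1.

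Beyond the 9 tubulins described, the table lists 9 further alpha- and beta-tubulin genes from the list used here, and 2 of them passed the expression minimum. TUBA8, an alpha-tubulin, had 47.00 estimated counts untreated, 21.86 at 0.5 nM and 16.33 at 1.5 nM, with a ratio of -1.09 [-2.10, -0.34] at 1.5 nM. TUBB1, the beta-tubulin of platelets, had 23.55, 36.07 and 14.36 estimated counts, with 0.93 [0.22, 1.81] and -0.36 [-1.47, 0.61]. These were the low counts of genes that may share reads. TUBB1 passed the minimum only through the 0.5 nM library, where it was high, so its ratio there is partly shaped by that filter. The gamma-, delta- and epsilon-tubulins of centrosomes and centrioles do not begin with the codons shown above. All 4 passed the minimum, 3 of 4 were below 0 at each dose, and their median was -0.13 at 0.5 nM and -0.11 at 1.5 nM. TUBG1, the main gamma-tubulin of microtubule nucleation, had 54.7, 47.6 and 44.5 CPM, with -0.20 [-0.33, -0.07] and -0.30 [-0.43, -0.17]. TUBG2, named after its values were seen, had 49.62, 25.07 and 41.80 estimated counts and -0.55 [-1.34, 0.14] at 0.5 nM. TUBE1 and TUBD1 had -0.12 and -0.10 at 1.5 nM, with intervals that held 0.

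The partners of TTC5 stayed near the untreated level. For SCAPER and 11 CCR4-NOT genes the median ratio was 0.03 at 0.5 nM (5 of 12 below 0) and -0.04 at 1.5 nM (7 of 12 below 0). CNOT6L, a deadenylase subunit, had the largest difference at 1.5 nM with -0.25 [-0.34, -0.16], then CNOT10, a subunit that binds CNOT11, with -0.24 [-0.37, -0.10], and the ubiquitin ligase gene CNOT4 with 0.12 [-0.04, 0.29]. SCAPER had 283, 195 and 229 counts, with -0.12 [-0.39, 0.15] and 0.07 [-0.19, 0.33]. None of the 12 was 2-fold changed at either dose.

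Genes that fold or modify tubulin differed from untreated in both directions. For the 14 folding cofactor and prefoldin genes the median ratio was -0.09 at 0.5 nM (10 below 0) and -0.01 at 1.5 nM (9 below 0). TBCEL, a cofactor-like gene that destabilises tubulin, had 0.24 [0.08, 0.39] at 1.5 nM, and the prefoldin subunits PFDN4 and PFDN5 had -0.13 [-0.35, 0.09] and 0.13 [0.03, 0.22]. Of 21 listed modifying enzymes 15 passed the minimum, with medians of 0.06 at 0.5 nM (6 of 15 below 0) and 0.02 at 1.5 nM (7 of 15 below 0). The glycylase gene TTLL3 had 0.24 and 0.45 [0.29, 0.62] in order of dose, and its counts were not whole. TTLL1, of a polyglutamylase complex, had 0.28 and 0.37 [0.04, 0.71], and HDAC6, a tubulin deacetylase, 0.26 and 0.33 [0.18, 0.48]. The lowest ratios of the 15 at each dose, named after their values were seen, were those of the polyglutamylase gene TTLL11 and the tubulin acetyltransferase gene ATAT1. TTLL11 had -0.43 [-0.86, -0.03] at 0.5 nM and -0.30 [-0.71, 0.08] at 1.5 nM, and ATAT1 had -0.32 [-0.63, -0.02] and -0.27 [-0.57, 0.02], so the intervals of both held 0 at 1.5 nM. Of the genes that passed the minimum in these 2 lists, none was 2-fold changed at either dose.

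**Figure D5:**
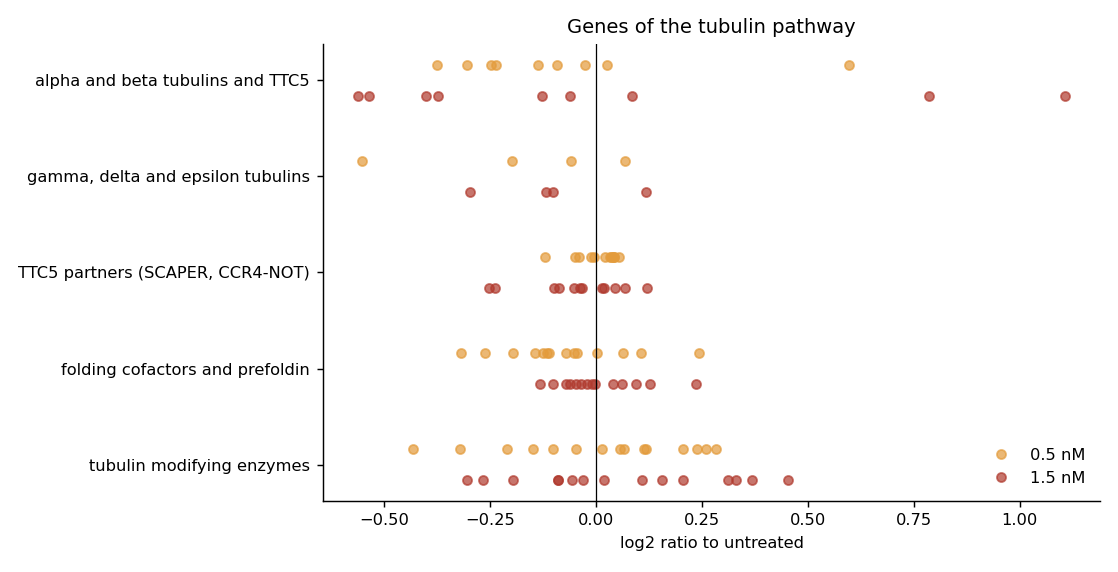
Log2 ratio to untreated (x axis) of each gene that passed the expression minimum in 5 lists (y axis), at 0.5 nM (upper row of each pair) and 1.5 nM (lower row). The TTC5 partners lie close to 0, with medians of 0.03 and -0.04, while the alpha and beta tubulins with TTC5 spread from -0.56 for TUBB to 1.11 for TUBB3 at 1.5 nM.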

How the data were processed

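The authors deposited 1 table with an estimated count and a TPM value per gene in each of 3 libraries of polyadenylated RNA. The deposited estimated counts are not normalized, and 12.7% of them untreated, 12.3% at 0.5 nM and 12.0% at 1.5 nM were not whole. In each library the TPM, deposited beside them, takes gene length into account and adds up to 1000000. The submitters' processing notes list DESeq2, edgeR, StringTie 1.3.1, HISAT2 and fastp 0.18.0. What each was used for, the genome build and the gene annotation were not given in the sources used here.

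Counts were rounded, and genes were kept if they averaged at least 1 CPM. TMM factors from edgeR 4.0.16 (R 4.3.3) were 0.987 untreated, 1.006 at 0.5 nM and 1.008 at 1.5 nM. Log2 CPM used a prior count of 2. Intervals are exact (Clopper-Pearson, 95%) for the rounded counts and cover counting error only. PCR copies are not independent molecules, so the intervals may be too narrow even for that error. With 1 library per group no test was run and no p-value is given. Alternatives used DESeq2 1.42.0 size factors, upper-quartile scaling, TPM with a pseudocount of 0.1, no filter, a prior count of 0.5, a GC trend removed by lowess (statsmodels 0.14.6), other pools and whole-count genes alone. Calculations used scipy 1.17.1, pandas 2.3.3 and numpy 2.4.6 under Python 3.11.15 and were tested on simulated counts. Coding starts, windows and GC content came from GENCODE release 29, matched by Ensembl gene ID; shared first residues were counted from codons, as no protein table was used here.

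The members, lists and thresholds were chosen with earlier results of these data known. Named list genes are the 3 with the largest absolute ratio at 1.5 nM among those of 5 or more mean CPM. SCAPER, TUBG2, TUBA8, TUBB1, TTLL11, ATAT1, ASS1, PSAT1, KRT8 and KRT18 were named after their values were seen.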

Additional observations from a re-analysis of the deposited data

Results flagged for a closer look

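TUBB3 is listed because its ratios to untreated pointed in opposite directions at the 2 doses, -0.24 at 0.5 nM and 1.11 at 1.5 nM. The difference was not tested, both ratios share the untreated library, and the 0.5 nM interval held 0.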

How the results depend on the processing

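No value whose interval left out 0 changed sign under any alternative. The prior count of 0.5, DESeq2 size factors, no filter and the sum over every gene of a class kept each of the summed, TTC5 and counted results within its interval or within 1.5 times its count. With upper-quartile scaling the sums at 1.5 nM were -0.47 for alpha and -0.46 for beta. With TPM, alpha had -0.22 at 0.5 nM and -0.45 at 1.5 nM, and beta -0.23 and -0.41. These 2 alternatives also moved the median of all genes. It was 0.02 at 1.5 nM with upper-quartile scaling, and 0.06 at 0.5 nM and 0.03 at 1.5 nM with TPM. With the GC trend removed, alpha had -0.26 at 0.5 nM and -0.24 between the doses, and beta -0.29 and -0.20. With whole-count genes alone, the beta sum is TUBB alone, with -0.38 at 0.5 nM, -0.56 at 1.5 nM and -0.19 between the doses. No alpha gene then remains, and the counts become those of TUBB and TTC5, with 2 below 0 in each comparison and 0 that were 2-fold changed at 1.5 nM or between the doses. Without the most abundant gene, a setting chosen after seeing the data, alpha had -0.22, -0.31 and -0.0919 and beta -0.0675, -0.0756 and -0.00814 at 0.5 nM, at 1.5 nM and between the doses. TTC5 at 0.5 nM, whose interval held 0, had 0.0247 with TPM, where the median of all genes was 0.0616. Depth limits TUBB3, TUBB2A and TUBA1A most. No paired analysis was possible because each group has 1 library.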
